A study of Drosophila melanogaster with 9 samples.

Results

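Hearts of Drosophila melanogaster females fed a high fat diet (HFD) were compared with hearts of females fed a normal diet (ND), over every gene of the deposited expression table. The comparison rests on 6 of the 9 libraries of the series, 3 of HFD hearts and 3 of ND hearts, which were chosen by the diet in their labels and carry the letters A, B and C within each diet. HFD females had 7 days on ND and then 3 days on food with 30% coconut oil, while ND females had 10 days on the normal food. The remaining 3 libraries came from females kept 10 days on a high sugar diet (HSD) with 30% sucrose, and they were set against HFD directly. All females were mated adults of w1118, a laboratory strain with a mutation in white, so that HFD, HSD and ND shared this allele. As far as the labels state, the groups differed by diet and by the days spent on it. Each library was RNA of pooled hearts, 15 per library by the sample labels and more by the methods of the study, so no value belongs to a single fly. Independent samples were collected on separate days according to the methods, but no letter was tied to a day, so collection days could not be used as a batch.

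The fly heart is a muscular tube under the dorsal cuticle of the abdomen, built of cardiomyocytes, flanked by pericardial nephrocytes that filter the hemolymph, and bordered by fat body and oenocytes. Dietary fat travels on lipoproteins, enters cells through lipoprotein and scavenger receptors, is activated to acyl-CoA, and is then stored as triglyceride in lipid droplets, built into membranes or oxidised. Amino acids feed the same metabolism through one-carbon units, which the methionine cycle uses for methylation and the folate cycle passes on to purine synthesis. In RNA of whole hearts, fewer cells of a type and less RNA per cell cannot be told apart.

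Values are RPKM, reads normalised to gene length and library depth, scaled here by 1 factor per library so that the libraries share a common centre. Library depth was 59941761 to 71825893 reads in HFD hearts and 75653834 to 79296601 reads in ND hearts. Across genes, 2 libraries of the same diet correlated at 0.980 to 0.994. A gene was called when limma, with Benjamini-Hochberg adjustment over 8365 tested genes, gave an adjusted p under 0.05 together with a change of at least 1.5-fold, and log2 fold changes (log2FC) refer to log2(RPKM + 0.5), which understates changes of weakly expressed genes.

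HFD hearts had 160 called genes, 1.91% of those tested, of which 39 were higher (0.466%) and 121 lower (1.45%) than in ND hearts. Decreases were more frequent, while median absolute log2FC was 0.94 for increases and 0.85 for decreases. Among the genes lower in HFD hearts 43 changed at least 2-fold and 11 at least 4-fold, and among the higher ones 17 changed at least 2-fold and 1 at least 4-fold. The HFD libraries lay outside the range of the ND libraries for every called gene, which was also true of 23.3% of all tested genes. The balance of increases and decreases depended on scaling. With RPKM as deposited the median of all genes moved up by 0.10 in log2FC, and 87 genes were higher and 96 lower in HFD hearts. Single libraries also weighed on the count, since 44 genes were called without ND library C and 61 without HFD library B, and 39 of the 160 genes were called in each of the 9 fits that left out 1 library.

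**Figure D1:**
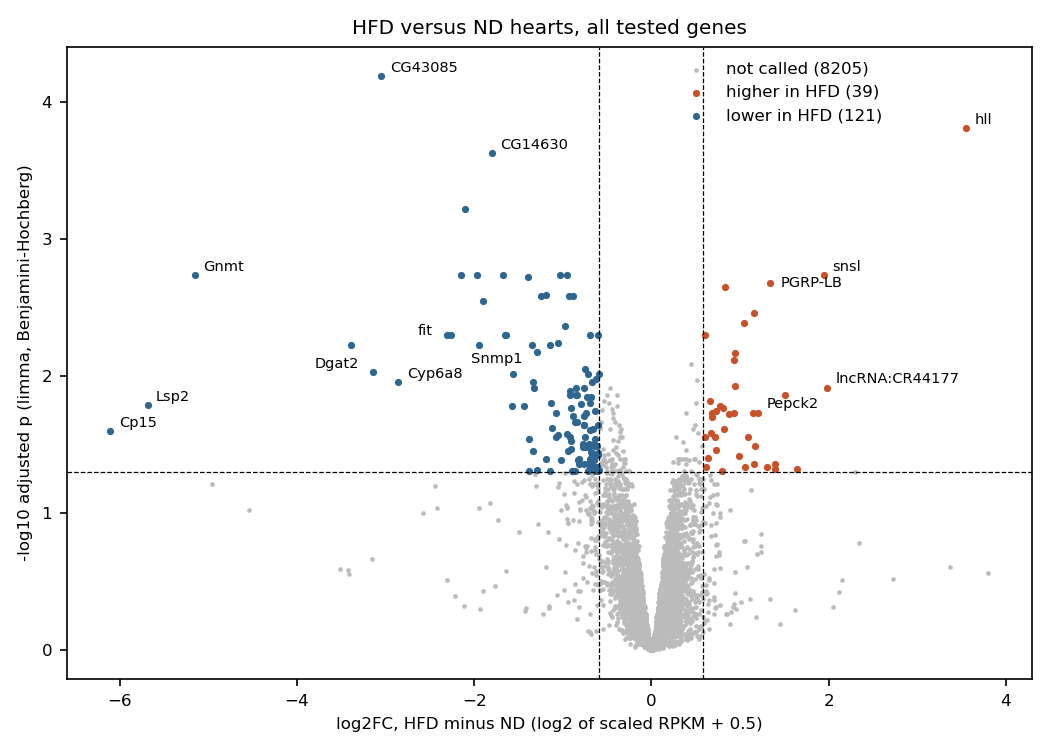
Each point is 1 of 8365 tested genes, with log2FC of HFD minus ND hearts on the x axis and -log10 of the limma adjusted p on the y axis. Dashed lines mark the 1.5-fold and adjusted p thresholds, beyond which 39 genes (orange) were higher and 121 (blue) lower in HFD hearts.

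Heart identity and muscle genes showed no called change. Of 10 tested cardiac identity factors, 27 sarcomere and contraction genes, 23 ion channel and calcium handling genes and 11 pericardial nephrocyte genes, limma and limma-voom called none, and an unadjusted p under 0.05 was reached by 0, 0, 2 and 0 of them. Hand, a transcription factor of cardiomyocytes and pericardial cells, had 235, 159 and 302 RPKM in HFD libraries A, B and C and 224, 281 and 247 RPKM in ND libraries A, B and C. Its libraries overlapped between diets. The heart homeobox gene tin stood at 2.82 to 4.16 RPKM in HFD hearts and 2.77 to 3.36 RPKM in ND hearts, and Mhc, the muscle myosin heavy chain, at 231 to 336 RPKM in HFD hearts and 215 to 278 RPKM in ND hearts. SERCA, the pump that returns calcium to the sarcoplasmic reticulum, was narrow in both diets, with 156 to 160 RPKM in HFD hearts and 133 to 151 RPKM in ND hearts. Its libraries did not overlap (log2FC 0.14). Of the 23 ion channel and calcium handling genes 3 had every HFD library above every ND library and 0 below, against 11.3% and 12% of all tested genes. DAAM, a formin that builds actin filaments in muscle and is in none of the lists, rose, with 2.97, 3.14 and 3.02 RPKM in HFD hearts against 1.71, 1.93 and 1.85 RPKM in ND hearts (log2FC 0.61, SE 0.07, adjusted p 0.0050 by limma). It was picked after its values were seen.

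Markers of some neighbouring tissues were not level between diets. The 24 eggshell and ovary markers, of which 17 were tested, summed to 26.4, 18.2 and 33.0 RPKM in HFD libraries A, B and C. In ND libraries A, B and C they summed to 72.8, 152 and 1625 RPKM, so ND library C carried the most of this RNA. Median log2FC of the 17 tested markers was -2.42, and 11 of the 17 had every HFD library below every ND library, as did 12% of all tested genes. Of the 17 markers 1, the chorion gene Cp15, was called. Fat body markers summed to 1398 to 1647 RPKM in HFD hearts and 2070 to 2883 RPKM in ND hearts, and to 1394 to 1639 RPKM and 1743 to 1941 RPKM in those diets once the storage protein gene Lsp2 was left out. Oenocyte markers, led by Cyp4g1, which finishes cuticular hydrocarbon synthesis, summed to 48267, 60242 and 53614 RPKM in HFD hearts and 38261, 53943 and 43605 RPKM in ND hearts. These sums overlapped between diets. Of the 7 oenocyte markers 4 had a log2FC above 0 (median 0.28), and 1, the reductase gene FarO, was called, as lower in HFD hearts. By limma and limma-voom no call was made among 9 hemocyte and 8 heart tube markers, of which 3 and 1 reached an unadjusted p under 0.05, nor among the few tested markers of gut, Malpighian tubule, neurons and flight muscle. What part these differences had in the results below was not tested.

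Triglyceride storage genes included 3 decreases. Of 24 tested genes for triglyceride storage, synthesis and lipolysis, 3 fell and none rose, 12 had a log2FC above 0, and the median was 0.01, against 0.02 over all tested genes. Of the 24 genes 10 reached an unadjusted p under 0.05, and the libraries of the diets did not overlap for 11, of which 4 were higher and 7 lower in HFD hearts. Over all tested genes 23.3% had no overlap, 11.3% being higher and 12% lower in HFD hearts. Dgat2, of the acyltransferase family that catalyses the last step of triglyceride synthesis, had 0.316, 0.384 and 1.00 RPKM in HFD libraries A, B and C, against 17.9, 5.06 and 6.84 RPKM in ND libraries A, B and C. Every HFD library was far below the lowest ND library, and the call (log2FC -3.15, SE 0.43, adjusted p 0.0093 by limma) held in all 9 fits without a library. Ldsdh1, a short-chain dehydrogenase of lipid droplets, had 50.4, 47.4 and 45.4 RPKM in HFD hearts, against 106, 73.7 and 92.2 RPKM in ND hearts (log2FC -0.91, SE 0.15, adjusted p 0.017). Agpat2, an acyltransferase that makes phosphatidic acid, had 5.37, 8.72 and 11.9 RPKM in HFD hearts, against 23.6, 16.5 and 23.8 RPKM in ND hearts. That call was near the threshold (log2FC -1.29, SE 0.28, adjusted p 0.049) and was made in 2 of 9 fits without a library. By limma-voom 1 gene of the list fell.

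Other genes of this list were not called. The lipase gene bmm, the fly counterpart of adipose triglyceride lipase, had 116.5, 121.8 and 115.3 RPKM in HFD hearts and 120.1, 106.7 and 112.8 RPKM in ND hearts, and the libraries overlapped (log2FC 0.06, SE 0.10). The other diacylglycerol acyltransferase gene, mdy, stood at 24.0 to 26.5 RPKM in HFD hearts and 32 to 39.7 RPKM in ND hearts, a change of -0.55 in log2FC that passed on adjusted p (0.045) and missed the 1.5-fold threshold. Lipid droplet coat genes moved by 0.32 (Lsd-2) and -0.40 (Lsd-1) in log2FC and the fatty acid synthase gene FASN1 by -0.25.

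Phospholipid and lipase genes outside the lists also differed, and those named here were picked after their values were seen, apart from GIIIspla2. Pisd, which makes phosphatidylethanolamine from phosphatidylserine in mitochondria, had 56.4, 56.7 and 57.1 RPKM in HFD hearts, against 131, 93.9 and 115 RPKM in ND hearts (log2FC -0.98, SE 0.11, adjusted p 0.0043 by limma). The lysophospholipid acyltransferase gene oys had 33.8, 38.6 and 39.8 RPKM in HFD hearts, against 66.2, 76.4 and 75.3 RPKM in ND hearts (log2FC -0.95, SE 0.09, adjusted p 0.0018). Both enzymes supply membrane phospholipids, and neither had overlapping libraries, like every called gene. In the other direction, GIIIspla2, a secreted phospholipase A2, had 86.6, 84.1 and 130 RPKM in HFD hearts, against 39.1, 35.2 and 29.1 RPKM in ND hearts (log2FC 1.51, SE 0.23, adjusted p 0.014). The annotated triglyceride lipase CG5966 rose, with 187, 162 and 221 RPKM in HFD hearts against 106, 95.1 and 95.4 RPKM in ND hearts (log2FC 0.93, SE 0.12, adjusted p 0.0076). A similar rise was seen for CG17597, related to the peroxisomal thiolase SCP2, with 68.3, 73.1 and 63.5 RPKM in HFD hearts against 38.1, 41.5 and 34.7 RPKM in ND hearts (log2FC 0.84, SE 0.08, adjusted p 0.0022).

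Fatty acid uptake and activation gave 1 call in each direction, among the strongest of the comparison. Of 32 tested genes for uptake, activation and oxidation 19 had a log2FC above 0 (median 0.04). The acyl-CoA synthetase gene hll (heimdall), which activates long fatty acids, had 23.2, 14.8 and 13.9 RPKM in HFD hearts, against 1.14, 1.20 and 0.653 RPKM in ND hearts. This was the largest rise of any tested gene that was called, 11.7-fold (log2FC 3.55, SE 0.21, adjusted p 0.00015), and it held in all 9 fits without a library. Snmp1, a CD36-family scavenger receptor best known from pheromone-sensing neurons, had 5.54, 9.66 and 9.02 RPKM in HFD hearts, against 36.7, 22.2 and 38.5 RPKM in ND hearts (log2FC -1.94, SE 0.24, adjusted p 0.0059), again in all 9 fits. The mitochondrial carnitine palmitoyltransferase gene whd, which admits long-chain fatty acids for oxidation, moved by 0.18, and SCOT, which uses ketone bodies, by 0.04 in log2FC, neither called.

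**Figure D2:**
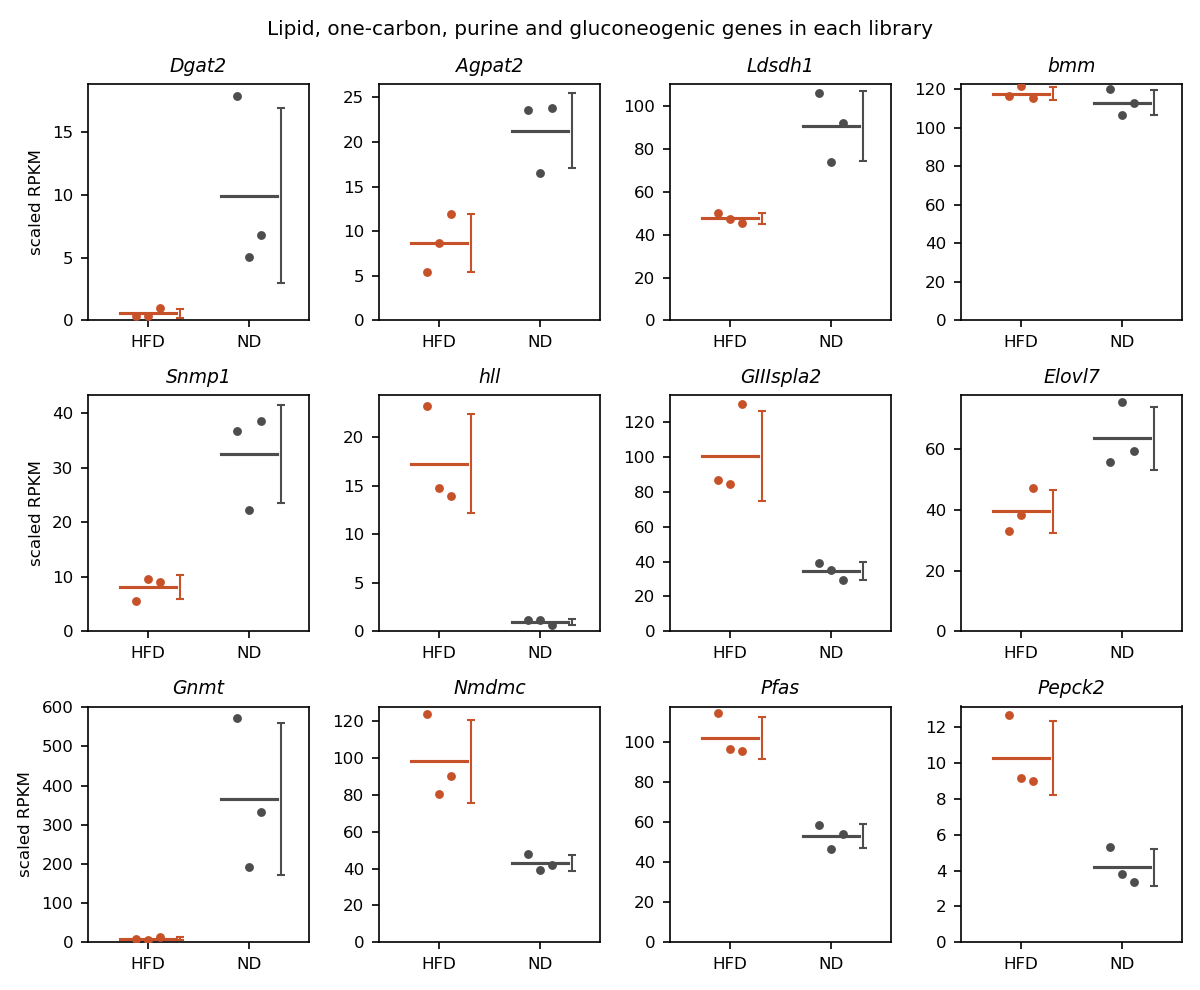
Scaled RPKM of 12 lipid and amino acid genes, 1 panel each, in the 3 HFD libraries (left) and 3 ND libraries (right) as points, with bars at the mean, error bars of 1 SD and y axes from 0. Dgat2, Agpat2, Ldsdh1, Snmp1, Elovl7 and Gnmt lie lower and hll, GIIIspla2, Nmdmc, Pfas and Pepck2 higher in HFD hearts, and bmm overlaps.

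Synthesis of very long chain lipids and hydrocarbons, the work of oenocytes, included 3 decreases and no increase among 23 tested genes (10 above 0, median -0.05, or 0.05 with RPKM as deposited). FarO, a fatty acyl-CoA reductase of oenocytes, had 98.5, 108 and 98.6 RPKM in HFD hearts, against 141, 197 and 175 RPKM in ND hearts (log2FC -0.74, SE 0.12, adjusted p 0.019 by limma). The elongase gene Elovl7 had 33.1, 38.4 and 47.2 RPKM in HFD hearts, against 55.9, 75.6 and 59.3 RPKM in ND hearts (log2FC -0.68, SE 0.14, adjusted p 0.043). CG15531, annotated as a fatty acid desaturase, had 794, 803 and 748 RPKM in HFD hearts, against 1068, 1506 and 1192 RPKM in ND hearts (log2FC -0.67, SE 0.13, adjusted p 0.036). These calls were made in 6, 1 and 2 of 9 fits without a library, and none of them without ND library C. With RPKM as deposited FarO alone stayed called. Under quantile normalization, with no filter on low RPKM, and with the 6 libraries of HFD and ND alone, 1 gene of the list was called lower each time. FASN2, the oenocyte fatty acid synthase, stood at 625 to 851 RPKM in HFD hearts and 458 to 575 RPKM in ND hearts (log2FC 0.47, adjusted p 0.11), and Cyp4g1 at 42982 to 53817 RPKM in HFD hearts and 33330 to 46509 RPKM in ND hearts (log2FC 0.31, adjusted p 0.47), so these oenocyte genes were not among those called.

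Lipoprotein and sphingolipid genes gave 1 decrease each, of 17 and 13 tested, with medians of -0.19 and -0.13. LRP1, an endocytic lipoprotein receptor, had 14.9, 17.3 and 13.2 RPKM in HFD hearts, against 27.5, 21.9 and 24.5 RPKM in ND hearts (log2FC -0.69, SE 0.11, adjusted p 0.016 by limma). The lipoprotein itself, apolpp, the apolipoprotein of lipophorin, stood at 407 to 603 RPKM in HFD hearts and 743 to 810 RPKM in ND hearts, with no overlap and an adjusted p of 0.052. CDase, the ceramidase, had 1.55, 1.24 and 1.5 RPKM in HFD hearts, against 2.41, 2.73 and 2.72 RPKM in ND hearts, and its call (log2FC -0.69, SE 0.15, adjusted p 0.047) was made in 1 of 9 fits without a library. With RPKM as deposited neither gene was called, the list medians were -0.08 and -0.03, and the 1 call of these lists was a rise of the lipophorin receptor gene LpR2 (log2FC 0.64, adjusted p 0.041). The call of CDase was also lost with a block on the library letter (adjusted p 0.057).

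The methionine cycle held the largest decrease of any enzyme listed. Gnmt, glycine N-methyltransferase, which uses S-adenosylmethionine to make sarcosine, had 8.02, 6.39 and 13.5 RPKM in HFD libraries A, B and C, against 574, 192 and 332 RPKM in ND libraries A, B and C (log2FC -5.15, SE 0.49, adjusted p 0.0018 by limma). Its call was made in all 9 fits without a library. MsrA, which repairs oxidised methionine in proteins, had 51.8, 51.8 and 36.4 RPKM in HFD hearts, against 192, 85.8 and 108 RPKM in ND hearts (log2FC -1.38, SE 0.30, adjusted p 0.049), a call made in 2 of 9 such fits. These were the 2 calls among 14 tested genes, of which 3 had a log2FC above 0 (median -0.33). Cystathionine beta-synthase (Cbs, -0.62), S-adenosylmethionine synthetase (Sam-S, -0.41) and adenosylhomocysteinase (Ahcy, -0.32) had log2FC values below 0 without a call. Sardh, which breaks sarcosine down, stood at 7.20 to 17.9 RPKM in HFD hearts and 4.70 to 8.38 RPKM in ND hearts, with overlapping libraries (log2FC 0.71, adjusted p 0.32).

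Folate and purine genes had increases and no called decrease. Of 18 tested serine, glycine and folate genes 1 rose (median -0.04, or 0.07 with RPKM as deposited), and of 15 tested purine genes 3 rose (11 above 0, median 0.08). Nmdmc, the mitochondrial enzyme that interconverts folate one-carbon units, had 123, 80.5 and 90.3 RPKM in HFD hearts, against 47.7, 39.2 and 42 RPKM in ND hearts (log2FC 1.16, SE 0.24, adjusted p 0.044 by limma). Pfas, an early enzyme of de novo purine synthesis, had 114, 96.7 and 95.6 RPKM in HFD hearts, against 58.7, 46.7 and 54.2 RPKM in ND hearts (log2FC 0.94, SE 0.15, adjusted p 0.019). Adsl, which acts later in the same pathway, had 54.0, 44.5 and 38.1 RPKM in HFD hearts, against 27.2, 23.0 and 22.9 RPKM in ND hearts (log2FC 0.88, SE 0.15, adjusted p 0.019). Gart, which carries several purine synthesis activities in 1 protein, had 144, 146 and 133 RPKM in HFD hearts, against 98.0, 79.0 and 101 RPKM in ND hearts (log2FC 0.61, SE 0.13, adjusted p 0.046). No HFD library of these 4 genes lay within the ND range, which was true of every called gene. Calls were made in 1 (Nmdmc), 5 (Pfas), 5 (Adsl) and 2 (Gart) of 9 fits without a library, none of them without ND library C, and limma-voom called 2 purine genes and no folate gene.

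Phenylalanine and tyrosine breakdown had 11 tested genes, and all 11 had a log2FC below 0 (median -0.38), while 4514 of all 8365 tested genes had one above 0. Of these 3 fell. Hpd, 4-hydroxyphenylpyruvate dioxygenase, had 28.6, 41.5 and 30.9 RPKM in HFD hearts, against 50.7, 50.9 and 64.0 RPKM in ND hearts (log2FC -0.71, SE 0.16, adjusted p 0.049 by limma). The next enzyme, homogentisate dioxygenase (hgo), had 11.2, 12.0 and 9.35 RPKM in HFD hearts, against 16.1, 16.5 and 19.3 RPKM in ND hearts (log2FC -0.65, SE 0.12, adjusted p 0.031), and GstZ2, of the family that isomerises maleylacetoacetate, followed with a log2FC of -0.62 (SE 0.13, adjusted p 0.046). The 3 calls were made in 1, 3 and 0 of 9 fits without a library. All 3 were lost with no filter on low RPKM and with a block on the library letter (adjusted p 0.075 for Hpd, 0.055 for hgo and 0.076 for GstZ2), and 1 remained with RPKM as deposited. Hpd shares 27.3% of its exon bases with lncRNA:CR45176 on the other strand, and reads of the 2 cannot be told apart where counting ignored strand. Oat, ornithine aminotransferase, picked after its values were seen, had 61.4, 57.9 and 56.2 RPKM in HFD hearts, against 106, 83.0 and 85.7 RPKM in ND hearts (log2FC -0.63, SE 0.10, adjusted p 0.018).

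Central carbon metabolism had 2 increases among 38 tested glycolysis, pentose phosphate and TCA cycle genes (median 0.05). There was no call among 23 hexose, glycogen and trehalose genes, where 3 reached an unadjusted p under 0.05 and limma-voom called 0. With RPKM as deposited 1 of these 23, nebu, was called higher. Pepck2, a phosphoenolpyruvate carboxykinase, had 12.6, 9.17 and 8.98 RPKM in HFD hearts, against 5.33, 3.82 and 3.37 RPKM in ND hearts (log2FC 1.21, SE 0.20, adjusted p 0.018 by limma). ScsbetaA, the subunit of succinyl-CoA synthetase that pairs with ADP, had 473, 442 and 372 RPKM in HFD hearts, against 291, 249 and 261 RPKM in ND hearts (log2FC 0.68, SE 0.12, adjusted p 0.026). Both calls were lost without HFD library A, HFD library B, ND library B or ND library C, with an adjusted p up to 0.114, and that of ScsbetaA also without HSD library B. Alas, which uses succinyl-CoA to start heme synthesis and was picked after its values were seen, had 702, 949 and 779 RPKM in HFD hearts, against 480, 575 and 500 RPKM in ND hearts (log2FC 0.64, SE 0.13, adjusted p 0.039). Sodh2, a sorbitol dehydrogenase, had 20.5, 18.5 and 8.48 RPKM in HFD hearts, against 5.61, 5.47 and 5.95 RPKM in ND hearts (log2FC 1.31, SE 0.28, adjusted p 0.046), but shares 60.8% of its exon bases with a gene on the other strand.

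A list of secreted signals, which the text of the study names apart from CCHa2, gave 8 decreases and 1 increase among 13 tested genes (median -1.31, 1 above 0). The study chose those genes on these samples, and CCHa2 was added with earlier results of these data known, so the list is no independent evidence of direction. The satiety peptide gene fit, expressed in female fat body, had 110, 82.8 and 160 RPKM in HFD hearts, against 686, 482 and 495 RPKM in ND hearts (log2FC -2.27, SE 0.27, adjusted p 0.0050 by limma). CCHa2, a peptide hormone that fat body secretes with feeding, had 20.3, 32.3 and 36.9 RPKM in HFD hearts, against 71.7, 75.5 and 73.3 RPKM in ND hearts (log2FC -1.33, SE 0.19, adjusted p 0.012). Groups were apart for both, as for every called gene. ImpL2, which binds insulin-like peptides, went the other way, with 251, 209 and 162 RPKM in HFD hearts against 125, 117 and 126 RPKM in ND hearts (log2FC 0.73, SE 0.14, adjusted p 0.034), though it shares 61.9% of its exon bases with another gene on its own strand.

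Yolk protein genes, which fat body and ovarian follicle cells express, were among the most abundant genes of both diets and fell. Yp2 had 7007, 6782 and 9122 RPKM in HFD hearts, against 34917, 26483 and 28039 RPKM in ND hearts (log2FC -1.97, SE 0.19, adjusted p 0.0018 by limma). Yp3 had 7387, 8058 and 7747 RPKM in HFD hearts, against 32115, 19716 and 22386 RPKM in ND hearts (log2FC -1.65, SE 0.20, adjusted p 0.0050). Yp1 had 6499, 7204 and 7280 RPKM in HFD hearts, against 21305, 15316 and 17128 RPKM in ND hearts (log2FC -1.35, SE 0.17, adjusted p 0.0059). All 3 were called in each of the 9 fits without a library, and they fell together with the fat body and eggshell markers given above, whose part in this was not tested. Under quantile normalization Yp1 and Yp3 turned to 0.12 and 0.16 in log2FC.

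The remaining calls of this list were CG3513 (log2FC -0.79, adjusted p 0.016 by limma), the neprilysin-like peptidase gene Nepl10 (-0.77, adjusted p 0.033) and CG34357 (-0.64, adjusted p 0.029). Not called were phu, with 3.65, 1.92 and 2.76 RPKM in HFD hearts and 13.9, 4.17 and 21.0 RPKM in ND hearts (log2FC -1.82, adjusted p 0.085), Invadolysin (-1.31, adjusted p 0.051), GILT2 (-0.63) and CG7997 (-0.61). In these 4 genes every HFD library was below every ND library, as in 12% of all tested genes. Neither nebu nor srl, a PGC-1 homolog, was called in limma, with log2FC values of 0.58 for nebu (adjusted p 0.12) and 0.54 for srl (adjusted p 0.13). With RPKM as deposited nebu was called higher (log2FC 0.69, adjusted p 0.039 by limma). Under the same scaling Invadolysin was called lower (log2FC -1.20, adjusted p 0.039 by limma) and CG34357 was not called. Without ND library C, 4 genes of the list fell and none rose.

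**Figure D3:**
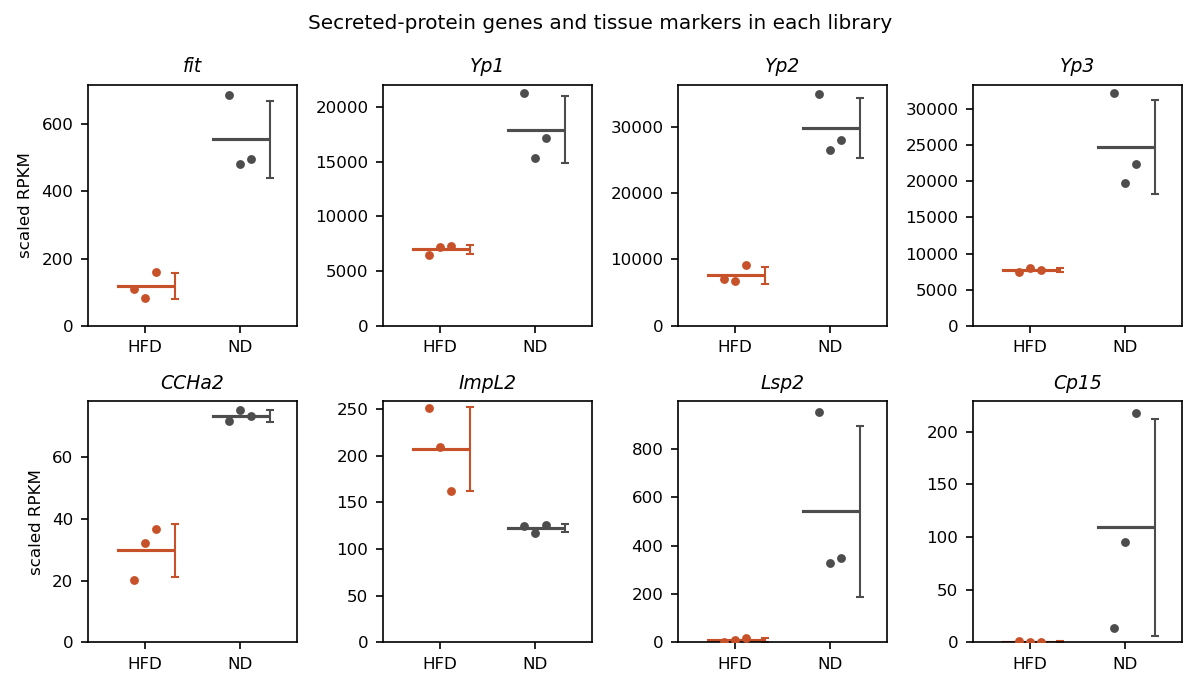
Scaled RPKM of 8 genes of secreted or egg proteins, 1 panel each, in the 3 HFD libraries (left) and 3 ND libraries (right) as points, with bars at the mean, error bars of 1 SD and y axes from 0. ImpL2 lies higher in HFD hearts, and fit, Yp1, Yp2, Yp3, CCHa2, Lsp2 and Cp15 lie lower, with wide ND error bars for Lsp2 and Cp15.

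Lsp2 and Cp15 had the largest decreases of the comparison and also uneven ND libraries. Lsp2, a hexamerin that stores amino acids, had 3.76, 8.67 and 19.8 RPKM in HFD hearts, against 949, 327 and 347 RPKM in ND hearts (log2FC -5.68, SE 0.89, adjusted p 0.016 by limma, 5 of 9 fits without a library), and shares 84.6% of its exon bases with a gene on the other strand. Cp15, an eggshell protein, had 1.45, 0.0304 and 0.399 RPKM in HFD hearts, against 13.9, 95.2 and 218 RPKM in ND hearts (log2FC -6.10, SE 1.09, adjusted p 0.025). The HFD values of Cp15 rest on 1 to 47 reads, its call was made in 4 of 9 fits without a library, and limma-voom did not make it. A follicle cell gene outside the lists, tj, a Maf transcription factor of gonadal somatic cells picked after its values were seen, had 1.82, 2.09 and 1.52 RPKM in HFD hearts, against 5.31, 4.14 and 5.51 RPKM in ND hearts (log2FC -1.24, SE 0.13, adjusted p 0.0026).

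Several of the other large decreases were in genes with little annotation, and several were called in every fit without a library. CG43085 had 5.67, 4.91 and 6.16 RPKM in HFD hearts, against 38.5, 52.9 and 59.6 RPKM in ND hearts, and had the smallest adjusted p of the comparison (log2FC -3.05, SE 0.15, adjusted p 6.4e-05 by limma). CG42329 had 1.02, 0.891 and 0.669 RPKM in HFD hearts, against 5.92, 4.30 and 5.90 RPKM in ND hearts (log2FC -2.10, SE 0.15, adjusted p 0.00060). CG14406 had 28.3, 30.2 and 21.7 RPKM in HFD hearts, against 97.1, 133 and 131 RPKM in ND hearts (log2FC -2.15, SE 0.19, adjusted p 0.0018). Together with CG43134 (-3.39), CG34166 (-2.31) and CG14630 (-1.80) they were called in all 9 fits without a library. CG14630 shares 96.6% of its exon bases with Rpp21 on the same strand, so the reads may belong to either. The best annotated gene of this group was smp-30, a homolog of the calcium-binding senescence marker protein of mammals, with 26.5, 21.6 and 27.0 RPKM in HFD hearts against 121, 74.4 and 92.7 RPKM in ND hearts (log2FC -1.90, SE 0.20, adjusted p 0.0028). Its paralog regucalcin, picked after its values were seen, had 1014, 919 and 889 RPKM in HFD hearts, against 1546, 1590 and 1529 RPKM in ND hearts (log2FC -0.73, SE 0.11, adjusted p 0.014).

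Juvenile hormone genes gave 6 decreases and no increase among 19 tested (3 above 0, median -0.43), and limma-voom also called 6. Juvenile hormone is a lipid-like hormone that drives yolk production in adult females and travels on binding proteins. The called genes were the binding protein genes Jhbp3 (log2FC -1.08, adjusted p 0.028 by limma), Jhbp1 (-0.76) and Jhbp13 (-0.67), and the metabolic genes CG10962 (-1.68), CG10352 (-0.89) and CG31075 (-0.77). CG10962 had 6.82, 8.16 and 7.64 RPKM in HFD hearts, against 30.9, 20.2 and 25.5 RPKM in ND hearts (SE 0.16, adjusted p 0.0018), and shares 44.0% of its exon bases with a gene on its strand. The receptors differed little, with log2FC values of -0.07 for Met and 0.04 for gce, and the target Kr-h1 stood at -0.48, none called. Without ND library C, 3 genes of the list were called.

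Odorant-binding protein genes, whose products carry small hydrophobic molecules in the sensory organs and elsewhere, were tested for 15 of 51 annotated members. None of the 15 had a log2FC above 0 (median -0.81), and 6 fell. Obp83ef had 21.4, 22.9 and 23.1 RPKM in HFD hearts, against 51.0, 45.0 and 43.0 RPKM in ND hearts (log2FC -1.03, adjusted p 0.0018 by limma). Obp83g had 0.975, 1.49 and 1.83 RPKM in HFD hearts, against 5.38, 3.99 and 4.57 RPKM in ND hearts (log2FC -1.43), and Obp57c had 59.6, 74.2 and 70.9 RPKM in HFD hearts, against 118, 107 and 146 RPKM in ND hearts (log2FC -0.85). No library crossed between diets in these 3 genes, nor in any other called gene. Obp57b (-0.91), Obp73a (-0.81) and Obp83cd (-0.66) were called too, and 2 genes of the list were called without ND library C.

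Detoxification genes moved in both directions. Of 58 tested cytochrome P450 genes 5 fell and 1 rose (median -0.10), and of 42 glutathione and UDP-glycosyl transferase genes 3 fell (median -0.25). With RPKM as deposited 3 P450 genes were lower and 3 higher (median -0.01), and 2 transferase genes were lower and 1 higher (median -0.14). Cyp6a8, a P450 gene known for induction by foreign compounds, had 5.66, 8.85 and 13.4 RPKM in HFD hearts, against 94.7, 39.0 and 80.3 RPKM in ND hearts (log2FC -2.85, SE 0.41, adjusted p 0.011 by limma), and its adjusted p was 0.064 without ND library C. The smaller decreases were Cyp4ac1 (-0.88), Cyp4s3 (-0.76), Cyp9h1 (-0.64) and Cyp6a21 (-0.64) among the P450 genes, and GstD5 (-0.76) and Ugt35C1 (-0.75) among the transferases, along with GstZ2. Cyp28d2 rose, with 6.35, 4.64 and 6.61 RPKM in HFD hearts against 3.72, 2.65 and 2.92 RPKM in ND hearts (log2FC 0.82, adjusted p 0.024). Without ND library C no gene of either list was called.

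Immune genes gave an increase of a peptidoglycan-binding protein and no called antimicrobial peptide gene of the fixed list. PGRP-LB, a secreted amidase that digests peptidoglycan and so restrains the Imd pathway, had 42.8, 48.2 and 40.9 RPKM in HFD hearts, against 17.3, 17.7 and 16 RPKM in ND hearts (log2FC 1.34, SE 0.13, adjusted p 0.0021 by limma). It was the 1 call among 9 tested peptidoglycan recognition proteins (7 above 0, median 0.27), and was made in all 9 fits without a library. With RPKM as deposited PGRP-LC was called higher as well (log2FC 0.62, adjusted p 0.018 by limma). Antimicrobial peptide genes had no call among 16 tested by limma or limma-voom, with 4 at an unadjusted p under 0.05, but a median log2FC of 0.86, 14 above 0 and a range of -0.98 to 3.80. When the fit held the 6 libraries of HFD and ND alone, and also without HSD library A, 1 of them was called higher. The list summed to 4368, 467 and 845 RPKM in HSD libraries A, B and C. DptB, a diptericin, had 205, 335 and 28.1 RPKM in HFD hearts and 19.0, 32.1 and 37.8 RPKM in ND hearts, so HFD library C lay within the ND range (log2FC 2.11, SE 1.16, adjusted p 0.38). Listericin, an antibacterial protein gene outside this list, had 1.80, 1.95 and 3.63 RPKM in HFD hearts, against 0.123, 0.522 and 0.681 RPKM in ND hearts (log2FC 1.65, SE 0.36, adjusted p 0.048), a call made in 2 of 9 fits without a library. Of 15 tested Bomanin and Daisho genes none was called, with 2 at an unadjusted p under 0.05 and none by limma-voom. With the 6 libraries of HFD and ND alone, and also without HSD library A, 1 of the 15 was called lower. The galactose lectin gene Lectin-galC1, picked after its values were seen, fell, with 287, 294 and 302 RPKM in HFD hearts against 492, 682 and 511 RPKM in ND hearts (log2FC -0.92, adjusted p 0.014).

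Among the largest increases, several were in genes of other kinds. Among them was snsl, a gene of cuticle formation, with 8.01, 12.9 and 9.07 RPKM in HFD hearts against 2.04, 2.18 and 2.31 RPKM in ND hearts (log2FC 1.94, SE 0.18, adjusted p 0.0018 by limma, 9 of 9 fits without a library). The long noncoding RNA lncRNA:CR44177 had 4.78, 9.83 and 5.70 RPKM in HFD hearts, against 0.711, 1.89 and 1.4 RPKM in ND hearts (log2FC 1.98, SE 0.29, adjusted p 0.012). HipHop, a telomere capping protein gene, had 7.45, 8.89 and 13.1 RPKM in HFD hearts, against 3.36, 4.08 and 4.80 RPKM in ND hearts (log2FC 1.14, SE 0.19, adjusted p 0.019). None of these had overlapping libraries, nor did any other called gene. Rgk2, a small GTPase gene of a family that in mammals inhibits calcium channels, had 6.25, 3.14 and 2.04 RPKM in HFD hearts, against 1.28, 0.939 and 0.847 RPKM in ND hearts (log2FC 1.39, SE 0.30, adjusted p 0.048), but was called in 1 of 9 fits without a library. The long noncoding RNAs lncRNA:CR45401 (log2FC 1.16, adjusted p 0.0034) and lncRNA:CR45402 (1.09, adjusted p 0.028) rose as well.

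Most of the basic machinery had no call. None was called by limma or limma-voom among 70 respiratory chain and ATP synthase genes, 72 mitochondrial and 84 cytosolic ribosomal protein genes, 32 proteasome subunits, 22 extracellular matrix genes, 19 heat shock proteins, 17 antioxidant genes, 10 metallothionein and Turandot genes and 8 circadian clock genes. An unadjusted p under 0.05 was reached by 13, 18, 1, 1, 4, 1, 3, 2 and 2 of them. The most abundant members had log2FC values of 0.04 for the ATP synthase subunit ATPsynbeta, -0.22 for the matrix protein SPARC, 0.27 for the chaperone Hsc70-4 and 0.08 for catalase (Cat), while the metallothionein MtnA stood at 1.05 (adjusted p 0.16). Respiratory chain genes had a median log2FC of -0.06, with 20 of 70 above 0, but 48 of 70 were above 0 with RPKM as deposited. Mitochondrial and cytosolic ribosomal protein genes had medians of 0.11 each, with 53 of 72 and 75 of 84 above 0. With RPKM as deposited 67 of 72 and 82 of 84 were above 0, and mRpL11 was called higher (log2FC 0.61, adjusted p 0.013 by limma). Of the 72 mitochondrial genes 18 had every HFD library above every ND library and 4 below, against 11.3% and 12% of all tested genes. Insulin, AKH and nutrient-sensing genes had 1 call among 28 (median 0.10), which was ImpL2. The insulin receptor gene InR stood at 7.63 to 9.68 RPKM in HFD hearts and 4.95 to 6.5 RPKM in ND hearts without overlap (log2FC 0.51, adjusted p 0.072), while foxo (0.15) and its target Thor (-0.18) moved less. With RPKM as deposited InR was called higher as well (log2FC 0.61, adjusted p 0.034 by limma).

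**Figure D4:**
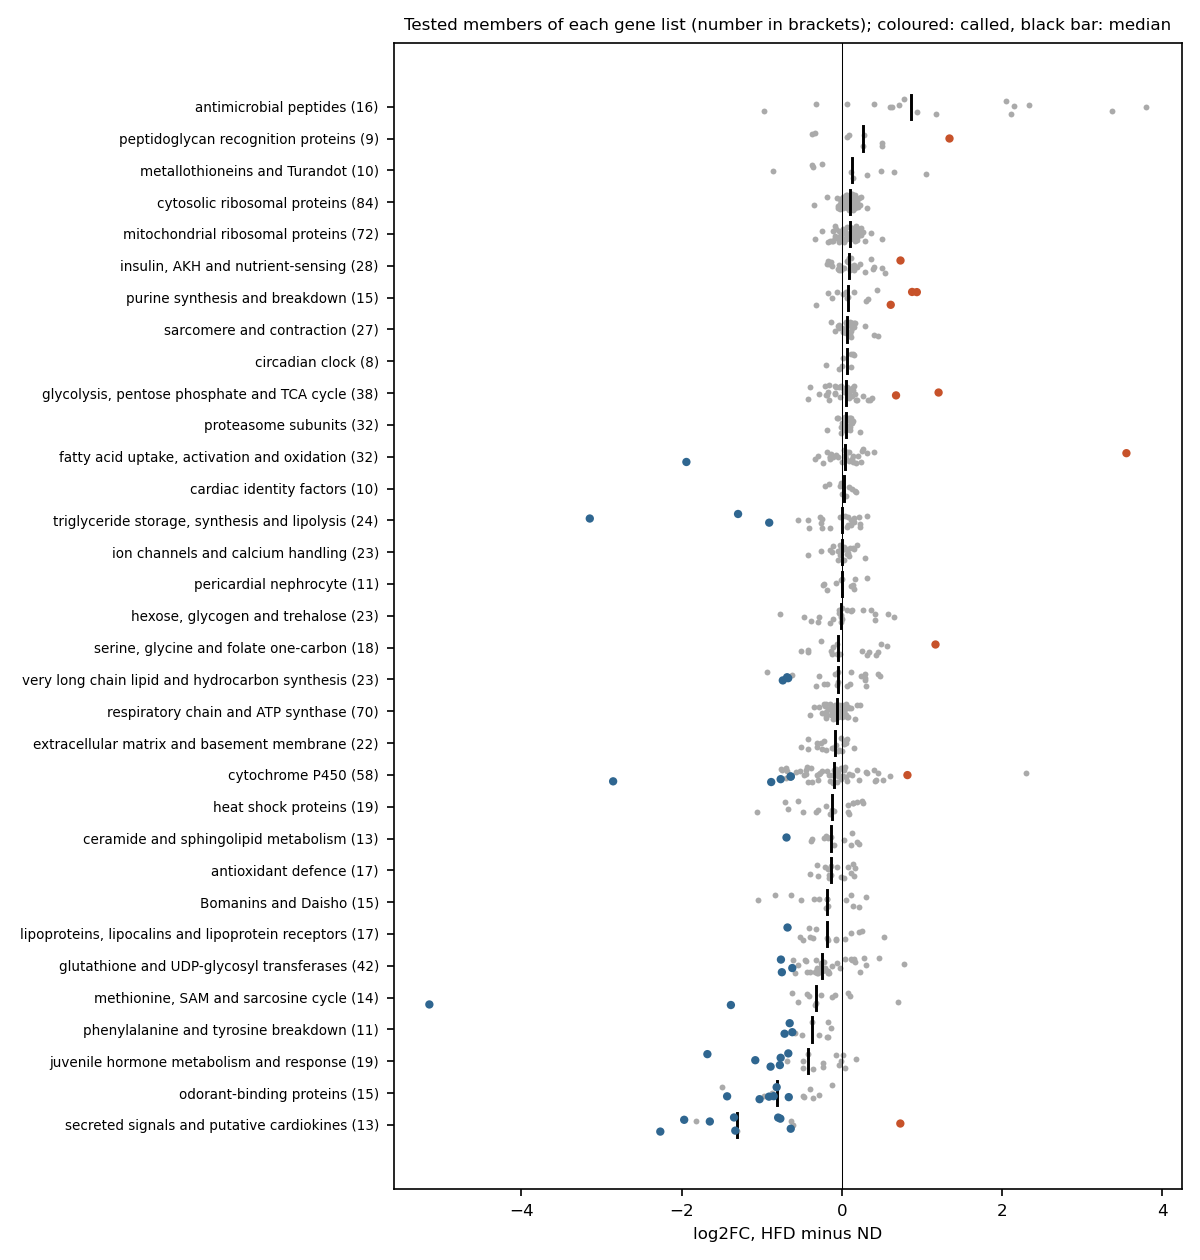
Each point is a tested gene, placed by log2FC of HFD minus ND hearts on the x axis and by gene list on the y axis, with called genes in orange (higher in HFD) or blue (lower in HFD), others in grey, and a black bar at the list's median. Medians run from -1.31 for secreted signals to 0.86 for antimicrobial peptides, where no gene was called.

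The direct comparison of HFD with HSD hearts tested which of these genes also differed between the diets rich in fat and in sugar, using the same HFD libraries. Females had 3 days on HFD but 10 days on HSD, so kind of diet and length of exposure cannot be told apart here. It called 365 genes, 4.36% of those tested, with 218 higher (2.61%) and 147 lower (1.76%) in HFD hearts, and with RPKM as deposited 277 were higher and 115 lower. Dgat2 had 7.82, 7.08 and 12.2 RPKM in HSD hearts, so HFD hearts were lower than these too (log2FC -3.18, adjusted p 0.0032 by limma), and the same held for Snmp1 (-1.70), Elovl7 (-1.01), FarO (-0.81), Yp2 (-1.11) and Yp3 (-0.82). Levels of hll were higher than in HSD hearts as well, which had 0.0771, 0.0954 and 0.115 RPKM (log2FC 4.86, adjusted p 9.9e-06).

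Folate, purine and sugar genes included many that were higher in HFD than in HSD hearts. Of 18 serine, glycine and folate genes 10 were higher in HFD than in HSD hearts (median log2FC 0.79), of 15 purine genes 7 (median 0.36), and of 23 hexose, glycogen and trehalose genes 10 (median 0.59), with none lower in these 3 lists. Against ND, HSD hearts were lower for 10, 5 and 9 genes of these lists (medians -0.78, -0.33 and -0.58) and higher for none. Medians of HFD minus ND were -0.04, 0.08 and -0.004. Gart had 28.9, 20.8 and 24.3 RPKM in HSD hearts, below both HFD and ND hearts (HFD minus HSD log2FC 2.50, adjusted p 4.1e-05 by limma). Pfas had 35.5, 24.1 and 24.7 RPKM in HSD hearts (log2FC 1.86, adjusted p 0.00052), and Nmdmc 31.9, 16 and 18.3 RPKM (log2FC 2.17, adjusted p 0.0017). Genes without a call between HFD and ND differed here as well, namely Sardh (log2FC 2.43, adjusted p 0.0041), nebu (1.14, adjusted p 0.0058) and bmm (0.79), which were higher in HFD than in HSD hearts. Very long chain lipid genes ran the other way, with 8 of 23 lower in HFD than in HSD hearts and none higher (median -0.46). Of these 23 genes 5 were higher and none lower in HSD than in ND hearts (median 0.50).

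**Figure D5:**
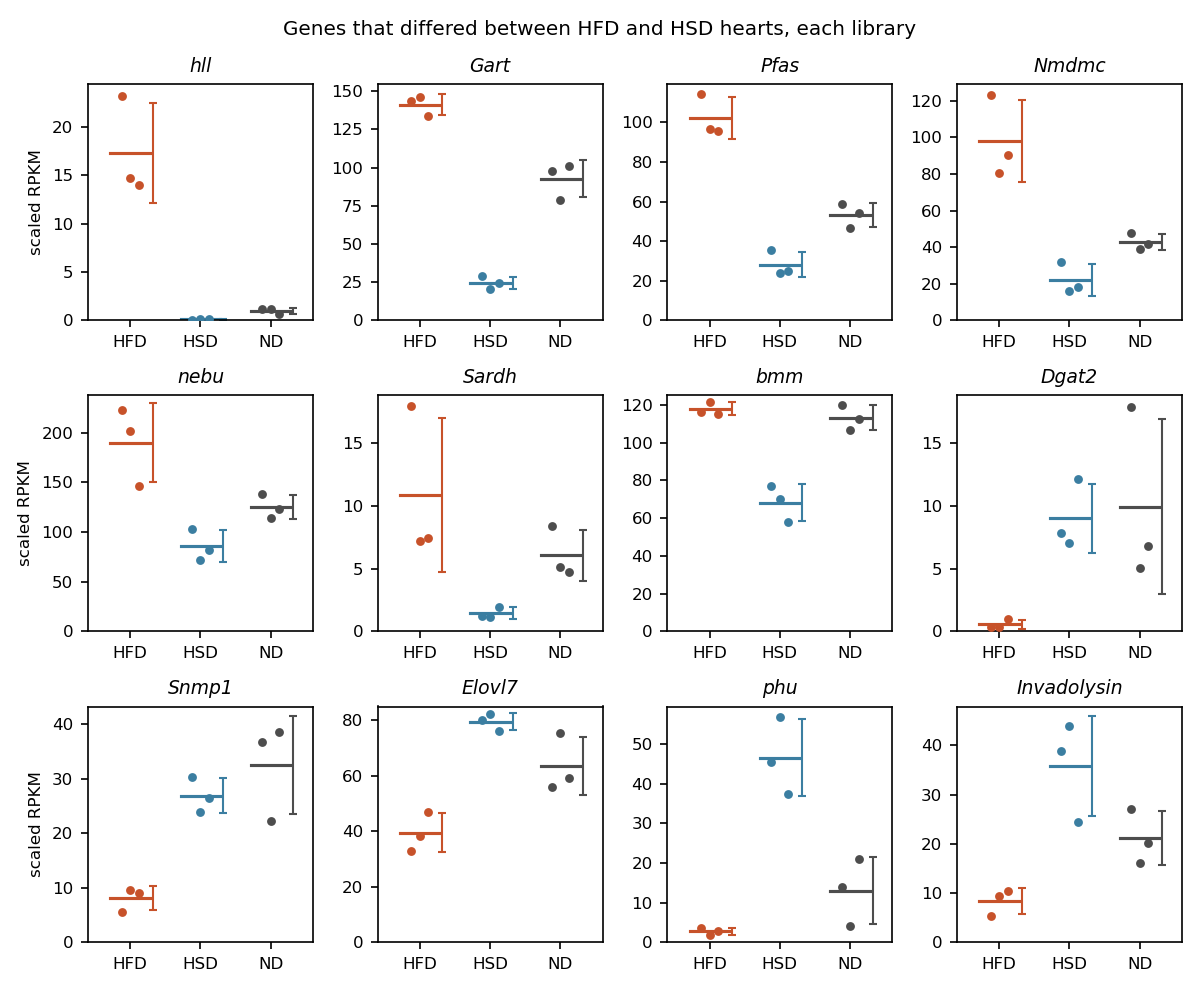
Scaled RPKM of 12 genes, 1 panel each, in the 3 HFD (left), 3 HSD (middle) and 3 ND (right) libraries as points, with bars at the mean, error bars of 1 SD and y axes from 0. HFD hearts are highest for hll, Gart, Pfas and Nmdmc and lowest for Dgat2, Snmp1 and Elovl7.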

How the data were processed

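Hearts were sequenced after ribosomal RNA depletion with a stranded kit. The authors counted reads per gene (featureCounts 1.6.1, per the submitters' processing notes) and deposited RPKM, which normalise reads to gene length and library depth, for 16700 rows and 9 libraries. Their values need not be whole numbers, so the count tools of the study were not the main test here. Whether counting used strand is not given in the sources used here.

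Gene labels and values were out of step over 9 stretches, which were realigned before any gene was named and hold 19 called genes. RPKM were divided by median-of-ratios factors (0.938 to 1.084), genes averaging 0.5 RPKM or more over the libraries were kept, and log2(RPKM + 0.5) was fitted for all 9 libraries in limma 3.58.1 (R 4.3.3) with 1 coefficient per diet, a variance trend and 6 residual degrees of freedom. A call needed an adjusted p (Benjamini-Hochberg) below 0.05 together with a 1.5-fold change or more. The labels do not say that libraries came from separate cultures of flies, so p-values measure the spread between these libraries. The procedure was checked on simulated data.

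Named genes were the 15 largest called increases and decreases, up to 6 called members of each of 33 gene lists, genes that the text of the study names, with CCHa2, bmm and srl, and, for lists without a call, the most abundant member. Exceptions are stated. Members and lists were chosen with earlier results of these data known. Of 160 called genes, 18 share more than 20% of their exon bases with another gene. SDs cover the 3 libraries of a diet. SEs come from the moderated variance of the fit of all 9 libraries, so the spread of the HSD libraries also enters them. Alternatives were limma-voom on reads rebuilt from RPKM, other filters, pseudocounts and scalings, a block on the library letter, and leaving out each library.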

Additional observations from a re-analysis of the deposited data

Results flagged for a closer look

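For 33 of the named genes the change against ND in HFD hearts differed from that in HSD hearts, by the direct limma contrast of HFD minus HSD (adjusted p under 0.05 and at least 1.5-fold). All values here are log2FC of HFD minus HSD. In lipid metabolism they were Dgat2 (-3.18), Snmp1 (-1.70), Elovl7 (-1.01), CG15531 (-0.98), FarO (-0.81), Ldsdh1 (-0.66), bmm (0.79) and hll (4.86). Genes of amino acid, folate, purine and carbon metabolism were higher in HFD hearts, with Gart (2.50), Sardh (2.43), Sodh2 (2.35), Nmdmc (2.17), Pfas (1.86), Pepck2 (1.62), Adsl (1.42) and ScsbetaA (0.63). Secreted and carrier protein genes were lower, with phu (-3.86), Invadolysin (-2.04), Yp2 (-1.11), Yp3 (-0.82), Obp57b (-0.80), Jhbp3 (-0.79), Obp57c (-0.71) and Jhbp13 (-0.63), apart from nebu (1.14). CG14406 (-1.84), CG42329 (-1.47) and Cyp4ac1 (-1.01) were lower as well. Cyp28d2 (1.41), PGRP-LB (0.99), Rgk2 (1.6), snsl (1.46) and lncRNA:CR44177 (2.14) were higher in HFD hearts.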

How the results depend on the processing

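Calls of HFD against ND were sensitive to the filter, to the threshold and to single libraries. Against 160 genes, 81 were called with no filter on low RPKM, 247 with no fold change threshold, 301 with an unadjusted p in place of the adjusted one, and 105 when the fit held the 6 libraries of HFD and ND alone. Leaving out 1 library gave 44 to 164 genes, the lowest counts being 44 without ND library C, 61 without HFD library B, 87 without HFD library A, 100 without ND library A and 105 without HSD library B. For HFD against HSD, 788 genes were called with no fold change threshold, and leaving out 1 library gave 236 to 437 genes against 365, with 236 without HSD library B. Limma-voom called 150 genes between HFD and ND. RPKM as deposited gave 183 genes, of which 87 were higher and 96 lower. Whether the library letter pairs the samples was not settled. The labels tie no letter to a day, and deviations of HFD and ND libraries with the same letter correlated at 0.22, 0.02 and 0.27 for A, B and C, against -0.30 to 0.23 for different letters, so the block was not used in the reported values. With the replicate block 161 genes were called for HFD against ND (45 higher and 116 lower, 137 of them shared with the fit without it) and 377 for HFD against HSD. Direction reversed for Yp1 (0.12) and Yp3 (0.16) under quantile normalization, which sets the top-ranked values of all libraries nearly equal, and for mRpS9 (0.0059) with RPKM as deposited. The 71 named genes that were called had 638 values without 1 library, of which 400 stayed called with the same direction and 238 lost the call, and 907 values under the other alternatives, of which 786 kept the call, 119 lost it and 2 reversed. Weakly expressed genes are the least certain, since a fixed pseudocount shrinks their changes, and the cause of each lost call was not tested.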

Other observations

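Called genes outside the lists included transport, enzyme and surface proteins, all picked here after their values were seen and given as log2FC of HFD minus ND with the limma adjusted p. Lower in HFD hearts were Eglp4, a water and glycerol channel (-0.70, adjusted p 0.032), the gap junction protein Inx3 (-0.85, adjusted p 0.014), the glucosamine-6-phosphate deaminase Oscillin (-0.75, adjusted p 0.0088), the tyrosylprotein sulfotransferase Tpst (-0.69, adjusted p 0.0050) and the carbonic anhydrase CAH1 (-0.70, adjusted p 0.043). The Nimrod receptor family gene NimC2, related to receptors of hemocytes, was lower as well (-0.92, adjusted p 0.028), and so was lush (-0.95, adjusted p 0.027), an odorant-binding protein that the list missed because of its symbol. Higher in HFD hearts were the secreted protease gene tld (0.95, adjusted p 0.012) and the inositol trisphosphate kinase gene IP3K2 (0.69, adjusted p 0.020). Of the 160 called genes 69 carry only a CG number as their name, and 51 belong to at least 1 list.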
